A study of Mus musculus with 12 samples.

Results

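The 31 genes described here are markers of the cells that build vessel walls. Of these, 22 are endothelial genes, expressed by the cells that line blood and lymph vessels, and 9 are mural genes, expressed by the pericytes and smooth muscle cells wrapped around that lining. The genes were chosen by symbol as known markers, and all 31 were found by Ensembl identifier among the 54232 genes of the count table. RNA was sequenced from B16F10 cells, a mouse melanoma line of C57BL/6 origin, in 12 libraries of 4 groups with 3 libraries each. WT is untreated B16F10 kept in culture. The relapsed lines, ITF1, Rel and ITM, are 3 separate cultures of B16F10 cells sorted from subcutaneous tumors that came back after immunotherapy, which in the study combined TNFα, an agonist of CD40 and an antibody against TRP1. Lyso is cultured B16F10 given lysosomes from T cells, called secreted granules in the study's methods, for 48 hours according to the labels, while the methods name a shorter time. Tumor (libraries 1, 3 and 4) is B16F10 taken by cell sorting from relapsed tumors that had been digested with enzymes, with RNA extracted at once. The labels give an age of 6 weeks, which their growth protocol ties to the injected mice, and name no genetic change in any group. The text does not state the gate by which the Tumor cells were sorted for RNA. A gating scheme that the study draws for flow cytometry takes B16F10 as cells low in CD45, a leukocyte antigen, with high forward scatter, and uses no endothelial or mural marker.

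Counts on genes ranged from 1667398 to 16402629 per library, with all Tumor libraries as well as WT 1 and WT 2 at the shallow end, and WT 3, Lyso and the relapsed lines at the deep end. Up to 3 counts were read as not detectable. On the CPM scale (counts scaled by library size and TMM factor) that limit is 1.70 in WT 1 and 0.177 in WT 3. All 10 melanocyte markers examined were above 3 counts in every library, with a summed level of 19811 to 28448 CPM in WT and 20546 to 22660 CPM in Tumor. Nothing in the labels says that the 3 libraries of WT or of Lyso came from separate cultures. The titles of the Tumor libraries do not say whether they came from separate mice. P-values therefore measure the spread between libraries. Of the pairs within a group, Lyso 2 and Lyso 3 were the most alike, at a chi-square per degree of freedom of 1.59. The next were Tumor 3 and Tumor 4, at 3.89.

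Endothelial cells respond to VEGF through the receptors Kdr and Flt1 and to angiopoietins through Tek, with Tie1 as its partner receptor, and they hold together through the cadherin Cdh5 and the adhesion molecule Pecam1. Mural cells are drawn to new vessels by PDGF and are recognised by Rgs5, Cspg4 and Notch3 in pericytes and by contractile proteins such as Acta2, Tagln, Myh11 and Cnn1 in smooth muscle. The vessels that feed a transplanted melanoma are built mainly by the host mouse, while several of these genes are also read in cells of other kinds. Eng, a co-receptor for TGFβ ligands, and Cspg4, known in melanoma as a surface antigen, are examples. Which cells the reads in Tumor came from was not tested.

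The 31 genes fell into 4 classes by their counts. In 8 genes, 5 endothelial (Vwf, Eng, Egfl7, Plvap and Ramp2) and 3 mural (Cspg4, Des and Tagln), every one of the 9 cultured libraries was above 3 counts and the mean in WT was at least 1 CPM, and these are called expressed in culture. In 7 genes, Cdh5, Kdr, Flt1, Tek, Tie1, Cd34 and Rgs5, none of the 9 cultured libraries exceeded 3 counts and all 3 Tumor libraries did. In 4 genes, Sox17, Erg, Cnn1 and Higd1b, no library of any group exceeded 3 counts. The other 12 lay between these classes. The map of all 31 genes shows the same split, with a few bands that run through every column and a larger set that is raised in the Tumor columns.

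**Figure D1:**
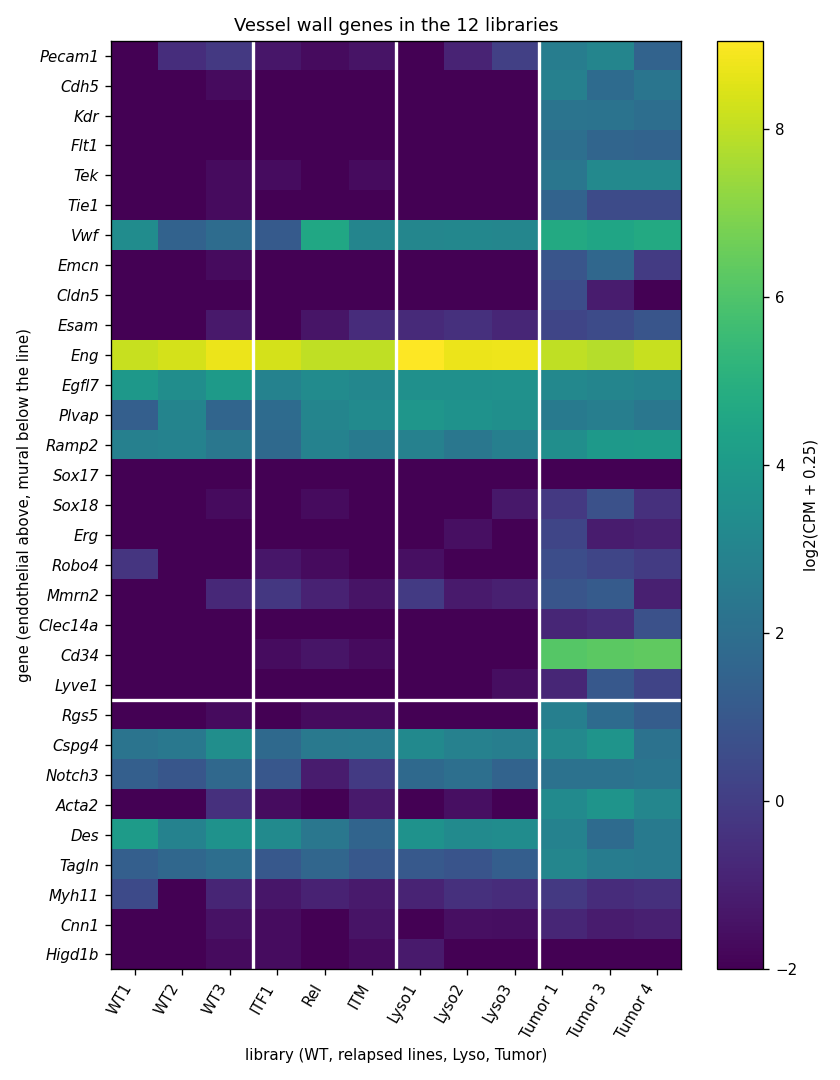
Level of each of the 31 genes (one line per gene, endothelial above and mural below the white line) in each of the 12 libraries, as log2 of CPM plus 0.25. Eng is bright in all 12 libraries, Cd34 is bright in the 3 Tumor libraries only, and Sox17 is dark throughout.

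Of the 31 genes, 12 were called higher in Tumor than in WT and 0 lower (edgeR's quasi-likelihood test across all genes, Benjamini-Hochberg adjusted p under 0.05 and absolute log2 fold change over 1). Over all 14924 genes tested, 8.56% were called higher and 2.2% lower. Of the 22 endothelial genes, 10 were called (Pecam1, Cdh5, Kdr, Flt1, Tek, Tie1, Vwf, Esam, Ramp2 and Cd34), and of the 9 mural genes, 2 (Rgs5 and Acta2). Only 19 of the 31 passed the filter on low counts, and 12 were not tested. Of the 19, 10 passed through the Tumor libraries alone, so that they had to differ. These were Pecam1, Cdh5, Kdr, Flt1, Tek, Tie1, Esam, Cd34, Rgs5 and Acta2. Their p-values, printed below, are therefore no separate evidence of a difference. Among the 9 genes that also passed in culture, Vwf and Ramp2 were called. The median log2 fold change of these 9 genes was 0.56, and that of all genes tested was 0.0014. In 21 of the 31 genes every Tumor library lay above every WT library, and in 3 every Tumor library lay below. The share of all genes tested with such separation was 21% and 15.1%. The 21 include the 10 genes that passed through Tumor alone. They also include untested genes such as Erg and Cnn1, with at most 3 counts in any library. The shares cover tested genes only, so the 21 of 31 cannot be set directly against them. With counts thinned to the shallowest library, 9 of the 31 genes could be tested and 4 were called higher, and in a fit of the 2 groups alone 7 were. In bulk RNA of this kind, fewer cells of a type and less RNA per cell cannot be told apart.

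The VEGF receptors Kdr and Flt1 had no reads in any culture. Kdr (chromosome 5 of GRCm38, 75932827 to 75978458), the main signalling receptor for VEGF, had 0 counts in all 9 cultured libraries and 14, 22 and 16 counts in Tumor 1, 3 and 4. This corresponds to 4.55, 4.43 and 3.77 CPM, or 4.25 ± 0.422 CPM (SD, n = 3). The Tumor libraries lay close together, and the level over Tumor was at least 29.7-fold higher than the limit that 3 counts over the WT group set (edgeR adjusted p = 0.00107). Flt1 (chromosome 5, 147561604 to 147726011), which binds VEGF and placental growth factor, likewise had 0 counts in all 9 cultures. It had 12, 14 and 11 counts in Tumor, equal to 3.90, 2.82 and 2.59 CPM, and was at least 21.2-fold higher (edgeR adjusted p = 0.0021). With 0 counts of Kdr or Flt1 over 9 cultured libraries, a level of up to 0.0302 CPM remains possible, by counting error only.

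The angiopoietin receptors followed the same order. Tek (chromosome 4, 94739289 to 94874976) had 15, 44 and 38 counts in Tumor, equal to 4.88, 8.86 and 8.94 CPM, while 1 was the highest count in any culture. The ratio of Tumor to WT, whose libraries held 1 count in all, was 166 (95% counting interval 29.2 to 6641), and edgeR's adjusted p was 6.71e-05. Tumor 1 was the lowest of the 3 libraries in Tek. Tie1 had 8, 6 and 5 counts in Tumor, equal to 2.60, 1.21 and 1.18 CPM, and 1 count in all of WT. Its ratio of 32.6 had a counting interval of 5.18 to 1355 (edgeR adjusted p = 0.00527), and without WT 3 the call was lost at an adjusted p of 0.0957, the highest of its alternatives.

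Of the junction genes, Cdh5 (chromosome 8, 104101625 to 104144511), the endothelial cadherin, had 21, 17 and 20 counts in Tumor. These are 6.83, 3.42 and 4.71 CPM, against 1 count in WT 3 and 0 in the other 8 cultured libraries. The ratio to WT was 99.5 (95% counting interval 17.2 to 3998; edgeR adjusted p = 0.000483). Pecam1, which sits at endothelial contacts and is also carried by platelets and some leukocytes, was not silent in culture. It had 0, 1 and 11 counts in WT, 2, 1 and 2 in the relapsed lines, 0, 3 and 10 in Lyso and 19, 40 and 11 in Tumor. On the CPM scale the highest culture was Lyso 3 with 0.81 and the lowest Tumor library was Tumor 4 with 2.59, so the groups did not overlap, and the log2 fold change against WT was 3.38 ± 0.75 (SE, edgeR adjusted p = 0.00715). Esam, an adhesion molecule of endothelium and platelets, had 0, 0 and 3 counts in WT and 3, 6 and 7 in Tumor. Its ratio of 9.15 had a counting interval of 2.62 to 49 and an edgeR adjusted p of 0.0253. That call was lost without WT 2, WT 3, Tumor 3 or Tumor 4, with WT 1 and WT 2 as the only control, and with DESeq2, and its adjusted p ranged from 0.0179 to 0.117 over the alternatives.

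Cd34 stood apart from the other endothelial genes. This sialomucin (chromosome 1, 194938819 to 194961279) is carried by capillary endothelium, blood progenitors and also by fibroblasts of the dermis and other connective tissue. It had 0 counts in all WT and Lyso libraries, 1, 2 and 1 counts in ITF1, Rel and ITM, and 218, 381 and 352 counts in Tumor. The Tumor level was 70.9, 76.7 and 82.9 CPM, or 76.8 ± 6.00 CPM (SD, n = 3), at least 544-fold above the WT limit (edgeR adjusted p = 2.92e-07). Per kilobase of exon, Cd34 reached 10.5 CPM in Tumor, Tek 1.60, Cdh5 1.19, Pecam1 0.90 and Kdr 0.47. Of the 31 genes, Eng alone had a higher mean level per kilobase in Tumor, with 62.8. In that order Tek and Cdh5, and Cdh5 and Pecam1, lay within 1 SD of each other (SD 0.493, 0.409 and 0.446), while Tek and Pecam1 lay further apart than that.

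**Figure D2:**
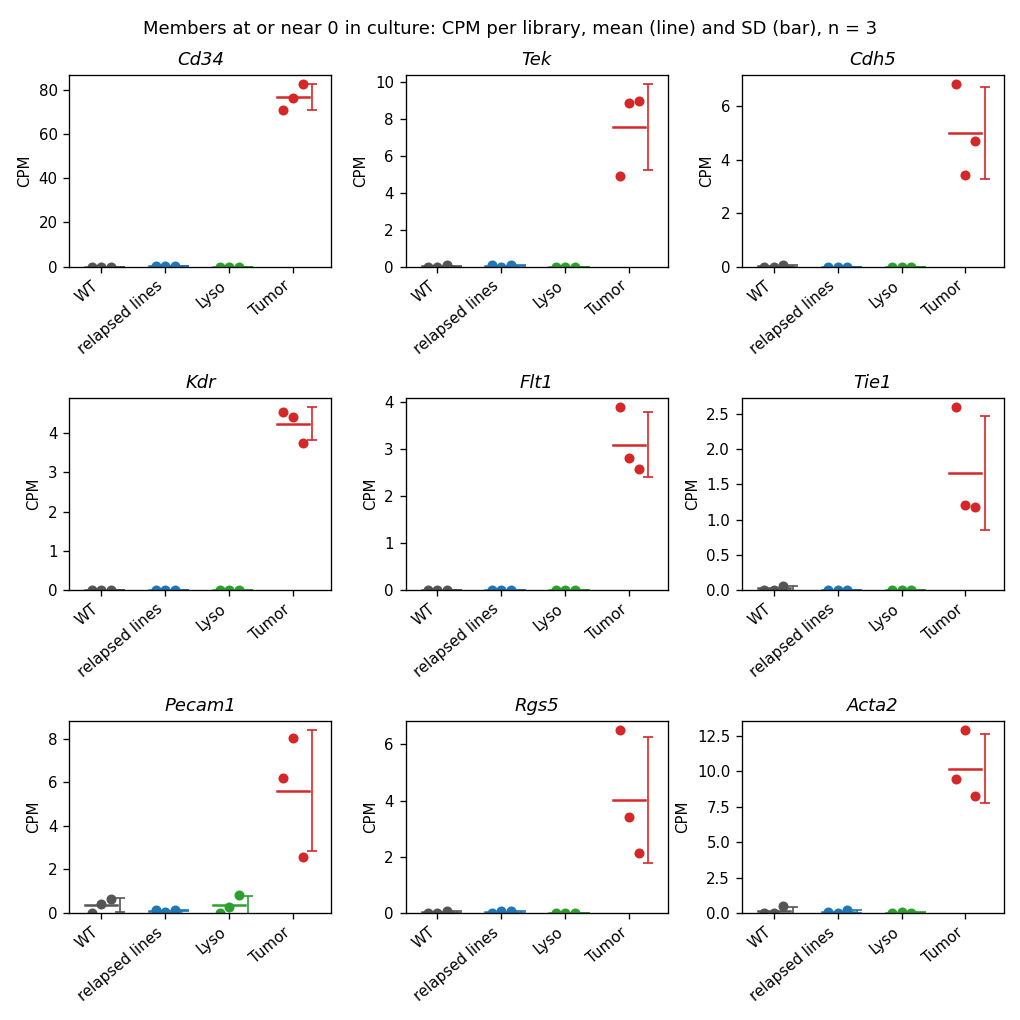
CPM of 9 genes at or near 0 in culture, one panel per gene on a linear axis from 0, with a point for each library, a line at the group mean and a bar of 1 SD (n = 3). The Tumor points of all 9 genes lie above every culture point, and Cd34 reaches 82.9 CPM.

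The promoters of 4 genes are shown because they stand for the patterns above and below: Cd34 and Flt1 are read in Tumor alone, Eng is read in every library, and Acta2 is a mural gene that rose in Tumor. Each run is taken from RefSeq (GRCm38.p6), is written 5′ to 3′ on the strand of the gene, and covers 300 bases, 250 before the start of the gene and 50 after it. Capitals mark AGGAAG or its reverse complement CTTCCT, a run of letters that holds the GGAA core bound by ETS factors such as Erg. Their positions are chr1:194938571-194938870 (plus strand) for Cd34, chr5:147725962-147726261 (minus strand) for Flt1, chr2:32646345-32646644 (plus strand) for Eng and chr19:34255324-34255623 (minus strand) for Acta2.
Cd34: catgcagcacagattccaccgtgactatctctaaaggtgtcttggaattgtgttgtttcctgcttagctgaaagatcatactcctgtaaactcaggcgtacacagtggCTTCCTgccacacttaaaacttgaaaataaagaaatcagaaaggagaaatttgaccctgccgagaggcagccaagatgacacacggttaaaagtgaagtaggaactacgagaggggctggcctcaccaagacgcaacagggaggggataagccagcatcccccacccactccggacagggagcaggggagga
Flt1: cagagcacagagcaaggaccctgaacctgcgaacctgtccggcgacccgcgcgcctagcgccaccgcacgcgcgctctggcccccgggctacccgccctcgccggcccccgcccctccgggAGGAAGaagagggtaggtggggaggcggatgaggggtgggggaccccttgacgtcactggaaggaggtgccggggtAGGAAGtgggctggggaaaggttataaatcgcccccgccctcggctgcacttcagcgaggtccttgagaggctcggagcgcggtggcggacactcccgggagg
Eng: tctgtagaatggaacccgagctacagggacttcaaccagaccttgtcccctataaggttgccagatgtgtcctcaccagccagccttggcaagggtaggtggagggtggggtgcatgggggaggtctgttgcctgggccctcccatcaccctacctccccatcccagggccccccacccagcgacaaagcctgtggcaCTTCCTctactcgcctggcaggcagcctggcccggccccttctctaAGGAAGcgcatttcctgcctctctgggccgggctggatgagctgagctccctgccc
Acta2: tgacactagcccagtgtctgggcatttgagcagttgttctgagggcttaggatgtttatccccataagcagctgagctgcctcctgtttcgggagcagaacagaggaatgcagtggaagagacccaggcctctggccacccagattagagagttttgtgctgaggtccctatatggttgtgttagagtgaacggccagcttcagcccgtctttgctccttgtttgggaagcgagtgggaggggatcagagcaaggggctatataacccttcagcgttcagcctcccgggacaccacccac

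The run AGGAAG, on either strand, occurred once in the Cd34 window, 2 times each in those of Flt1 and Eng, and 0 times in that of Acta2. The table of promoters held 18 of the 31 genes in 22 windows. Of the 16 endothelial windows 9 held the run (Cd34, Egfl7 in 2 windows, Emcn, Eng, Erg, Flt1, Robo4 and Tie1), and of the 6 mural windows 0 did. Of all 32851 promoter windows of this length, 35.4% held it, against 40.9% of the 22. Kdr and Tek, above 3 counts in Tumor alone as Flt1 is, lacked it. The CArG box, the site of serum response factor in smooth muscle genes, was searched on both strands in its strict form only. That form is CC, then 6 letters that are each A or T, then GG. The strict form was found in 0 of the 22 windows and in 1.63% of all windows. The Acta2 window printed above holds CCCTATATGG and CCTTGTTTGG, which depart from it at a C and at a G among the middle letters. Such near matches were not counted, so the 0 does not show that the Acta2 window lacks a CArG box. CpG pairs numbered 29 in the Flt1 window, 19 in that of Kdr, 7 in Cd34, 6 in Eng and in Acta2 and 3 in Tek. The median over all windows was 7, so promoters rich and poor in CpG both occurred among the genes above 3 counts in Tumor alone. No promoter was at hand for Pecam1, Cdh5, Vwf, Esam, Plvap, Ramp2, Sox17, Sox18, Mmrn2, Lyve1, Tagln, Myh11 and Higd1b.

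The remaining endothelial genes that were low in culture were near the limit of detection in Tumor too. Emcn, a sialomucin of veins and capillaries, had 5, 15 and 3 counts in Tumor and 1 in all cultures. Robo4, a guidance receptor of endothelium, had 4, 5 and 3, Clec14a, an endothelial lectin, 1, 2 and 6, Lyve1, the hyaluronan receptor of lymphatic endothelium and some macrophages, 1, 9 and 4, and Cldn5, a tight junction protein, 4, 1 and 0. The transcription factor Sox18 had 2, 7 and 2 counts and Erg 3, 1 and 1, while Sox17 had 0 counts in all 12 libraries. Mmrn2, a matrix protein made by endothelium, was between 0 and 10 counts throughout. None of these 9 genes passed the filter on low counts. Without that filter 30 of the 31 genes could be tested and 17 were called higher than in WT and 1 (Des) lower, beside 5.74% and 1.66% of all genes. Against the relapsed lines 21 were then called higher, beside 6.21% of all genes.

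Of the 8 genes expressed in culture, Vwf and Ramp2 were called higher in Tumor. Vwf, the clotting glycoprotein stored in endothelial granules and in platelets, was read in all groups with a wide spread. Its level was 10.2, 2.53 and 3.48 CPM in WT, 1.92, 23.6 and 7.91 in ITF1, Rel and ITM, 8.11, 8.38 and 8.10 in Lyso and 25.7, 22.1 and 26.4 in Tumor. Each Tumor library lay above each WT library, while Rel lay within the range of Tumor. The log2 fold change of Tumor against WT was 2.42 ± 0.73 (SE, edgeR adjusted p = 0.035). The call was lost without WT 2, WT 3, Tumor 1, Tumor 3 or Tumor 4 and with WT 1 and WT 2 as the only control, and the adjusted p ranged from 8.88e-07 to 0.165 over the alternatives. Against the relapsed lines it was 1.14 ± 0.60 (edgeR adjusted p = 0.21), and that difference did not pass. Ramp2, which pairs with the receptor for adrenomedullin, was at 6.79, 7.18 and 4.89 CPM in WT, 3.23, 7.16 and 5.39 in the relapsed lines, 6.98, 5.03 and 6.64 in Lyso and 10.7, 14.9 and 16.2 in Tumor. Its log2 fold change was 1.24 ± 0.32 against WT (edgeR adjusted p = 0.0165) and 1.41 ± 0.29 against the relapsed lines (edgeR adjusted p = 0.004). Against WT the call was lost without WT 3, Tumor 3 or Tumor 4 and with WT 1 and WT 2 as the only control. It was also lost with the replicate number as a block. The adjusted p over all alternatives ran from 0.00335 to 0.113. The exons of Ramp2 share 33.4% of their bases with Vps25 on the same strand, where reads cannot be assigned, so its level is uncertain.

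Eng was the highest of the 31 genes per kilobase in every group. It was read at 281, 326 and 424 CPM in WT, 328, 253 and 256 in the relapsed lines, 533, 428 and 440 in Lyso and 258, 227 and 277 in Tumor. Its mean per kilobase was 84.8 CPM in WT and 62.8 in Tumor, and the log2 fold change of -0.44 ± 0.17 did not pass (edgeR adjusted p = 0.0923). Egfl7, a secreted protein of endothelium that hosts a microRNA gene in an intron, was at 14.7, 10.6 and 15.9 CPM in WT, 7.22, 9.97 and 8.33 in the relapsed lines, 11.4, 11.6 and 11.7 in Lyso and 8.78, 8.05 and 7.30 in Tumor. Every Tumor library lay below every WT library, with a log2 fold change of -0.80 ± 0.21 (edgeR adjusted p = 0.0174), under the fold needed for a call. Plvap, which forms the diaphragms of endothelial pores, was at 5.53, 6.44 and 4.94 CPM in Tumor, within the WT range of 2.26 to 7.60 CPM. Its log2 fold change of 0.56 ± 0.48 did not pass (edgeR adjusted p = 0.461).

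**Figure D3:**
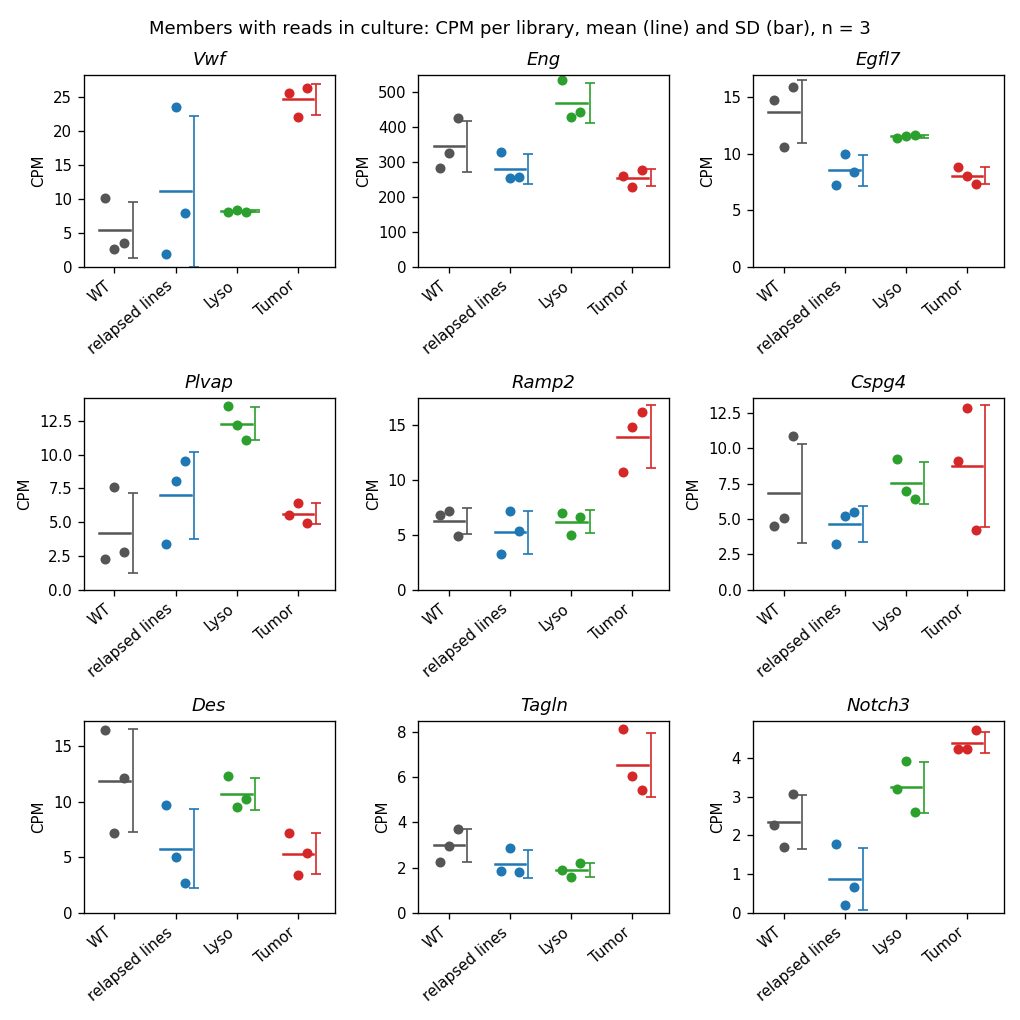
CPM of the 8 genes expressed in culture and of Notch3, one panel per gene on a linear axis from 0, with a point for each library, a line at the group mean and a bar of 1 SD (n = 3). Vwf, Ramp2 and Tagln have all 3 Tumor points above the WT points, Egfl7, Des and Eng have them below, and Plvap is highest in Lyso.

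Among the mural genes, Rgs5 and Acta2 marked Tumor most clearly. Rgs5, a regulator of G protein signalling found in pericytes, had 20, 17 and 9 counts in Tumor, equal to 6.50, 3.42 and 2.12 CPM, and at most 1 count in any culture. The ratio to WT was 78.9 (95% counting interval 13.5 to 3184; edgeR adjusted p = 0.000683). Acta2, the actin of smooth muscle that activated fibroblasts also make, had 0, 0 and 8 counts in WT, 1, 0 and 3 in the relapsed lines, 0, 1 and 0 in Lyso and 29, 64 and 35 in Tumor. At 9.43, 12.9 and 8.24 CPM the Tumor libraries lay far above all 9 cultures, with a log2 fold change of 4.82 ± 0.62 against WT (edgeR adjusted p = 0.00019). Other actin genes are nearly identical in their coding sequence, and reads that match several genes are not counted, so the level of Acta2 is uncertain.

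The remaining contractile genes did not form one pattern. Tagln, an actin-binding protein of smooth muscle and of myofibroblasts, was at 2.26, 2.96 and 3.72 CPM in WT, 1.84, 2.88 and 1.80 in the relapsed lines, 1.89, 1.58 and 2.19 in Lyso and 8.13, 6.04 and 5.41 in Tumor. The 3 Tumor libraries lay above all 9 cultures. The log2 fold change of 0.9996 ± 0.31 against WT (edgeR adjusted p = 0.0413) was just short of the fold threshold, and that of 1.57 ± 0.29 against the relapsed lines passed (edgeR adjusted p = 0.00198). Of the exon bases of Tagln, 67.9% overlap genes on the other strand, mainly Pcsk7, whose own level was 33.4 ± 3.64 CPM in WT and 27.0 ± 2.15 CPM in Tumor (SD, n = 3). The strand setting of the counts is not given in the sources used here, so reads of the pair may not be told apart. Myh11, the heavy chain of smooth muscle myosin, stayed between 0 and 5 counts in all 12 libraries, and Cnn1, or calponin, between 0 and 2. Higd1b, found in pericytes, had at most 2 counts in any library and 0 in Tumor.

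Des, Cspg4 and Notch3 were read in culture as well as in Tumor. Des, the intermediate filament of muscle and pericytes, was at 16.4, 7.18 and 12.1 CPM in WT, 9.68, 5.02 and 2.7 in the relapsed lines, 12.4, 9.50 and 10.3 in Lyso and 7.15, 3.42 and 5.41 in Tumor. All 3 Tumor libraries lay below the WT libraries by a narrow margin, and the log2 fold change of -1.18 ± 0.46 did not pass (edgeR adjusted p = 0.0957). Cspg4, the proteoglycan NG2 of pericytes and melanoma, was at 4.53, 5.07 and 10.9 CPM in WT, 3.23, 5.22 and 5.51 in the relapsed lines, 9.24, 6.99 and 6.40 in Lyso and 9.10, 12.9 and 4.24 in Tumor. The groups overlapped, and the log2 fold change of 0.19 ± 0.41 did not pass (edgeR adjusted p = 0.801) and turned to -0.24 without Tumor 3. Notch3, the Notch receptor of mural cells, was just outside the class expressed in culture because Rel had 3 counts. Its level was 2.26, 1.69 and 3.07 CPM in WT, 1.77, 0.20 and 0.66 in ITF1, Rel and ITM, 3.21, 3.91 and 2.59 in Lyso and 4.23, 4.23 and 4.71 in Tumor. Tumor lay above all 9 cultures, yet only the difference from the relapsed lines passed, at a log2 fold change of 2.35 ± 0.52 (edgeR adjusted p = 0.00675), against 0.77 ± 0.53 for WT (edgeR adjusted p = 0.348).

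Against the relapsed lines, 13 of the 31 genes were called higher in Tumor and 0 lower, beside 8.36% and 2.31% of all genes tested. In 21 genes every Tumor library lay above every relapsed line library, and in 0 every one lay below, beside 20.1% and 17.4% of all genes tested. Here too the 21 include untested genes such as Erg and Cnn1, which the shares leave out. This comparison uses the same Tumor libraries with other controls, all of them deep. The genes called were those called against WT without Vwf and with Notch3 and Tagln. Among the 9 genes that also passed the filter on low counts in culture, Ramp2, Notch3 and Tagln were called. The other genes called passed through the Tumor libraries alone, so that they had to differ here too. Cd34, Pecam1 and Acta2 had 4, 5 and 4 counts over the relapsed lines, none of which exceeded 3 in a library, so their folds rest on few counts. The ratio of Tumor to the lines was 864 for Cd34 (95% counting interval 336 to 3176; edgeR adjusted p = 5.77e-08). It was 50.9 for Pecam1 (20.8 to 161; edgeR adjusted p = 0.000252) and 116 for Acta2 (44.3 to 433; edgeR adjusted p = 7.45e-06). Kdr was at least 63-fold higher, Flt1 at least 44.8-fold, Cdh5 at least 70.2-fold and Tie1 at least 23-fold, each against the limit of 3 counts over the group. Egfl7, which was lower in Tumor than in WT at the adjusted p, was at -0.09 ± 0.20 here (edgeR adjusted p = 0.805).

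The relapsed lines had grown out of tumors before they were sequenced, and the question there was whether vessel genes had come along. Of the 31 genes, 0 were called between the relapsed lines and WT (edgeR's quasi-likelihood test), beside 0.0134% of all genes called higher and 0.0268% lower. Only 19 were tested, of which 9 passed the filter on low counts in culture. The other tested genes had few or no counts in either group. So few genes were called in all that the 0 does not set these genes apart or answer that question. All 3 lines lay above all 3 WT libraries in 1 gene (Cd34, at 1 or 2 counts) and below them in 1 (Egfl7), beside 6.43% and 4.19% of all genes. At an unadjusted p under 0.05 stood 3 genes, Des, Egfl7 and Notch3, all lower in the lines, with log2 fold changes of -1.04 ± 0.42, -0.71 ± 0.19 and -1.58 ± 0.54 (edgeR adjusted p = 0.389, 0.202 and 0.324). Without ITF1, Notch3 was called lower, at a log2 fold change of -2.53 (edgeR adjusted p = 0.0337), while over all alternatives its adjusted p ran from 0.0337 to 0.956. DESeq2 called 0 genes as well. The endothelial genes not expressed in culture, 17 in number, summed to 0.736 to 1.08 CPM in the lines and 0.422 to 1.47 CPM in WT, against 109 to 117 CPM in Tumor. For Vwf, Rel stood at 23.6 CPM beside 1.92 in ITF1 and 7.91 in ITM, while Rel had 0 or 1 count of Cdh5, Kdr, Flt1, Tek, Tie1 and Pecam1.

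In Lyso, 1 of the 31 genes was called higher than in WT and 0 lower, beside 2.43% and 0.576% of all genes tested. Here too 19 were tested, of which 9 passed the filter on low counts in culture. All Lyso libraries lay above all WT libraries in 3 genes (Plvap, Eng and Esam) and below them in 1 (Tagln), beside 15.8% and 11.6% of all genes. Plvap was at 2.26, 7.60 and 2.77 CPM in WT and 13.6, 12.2 and 11.1 in Lyso, with 3.38, 8.03 and 9.53 in the relapsed lines. Lyso lay above every library of the other groups, with a log2 fold change of 1.67 ± 0.43 against WT (edgeR adjusted p = 0.0476). The call was lost without WT 1, without WT 3, without any of the 3 Lyso libraries, with WT 3 as the only control, with scaling by library size alone and with counts thinned to the shallowest library, and its adjusted p ranged from 0.000245 to 0.253. Leukocyte markers moved in the same libraries. Their summed level over 10 genes was 35.8 to 38.9 CPM in Lyso and 12.5 to 29.2 CPM in WT. In the relapsed line ITF1 it was 46.8 CPM, above every Lyso library. Of the 10, 7 were tested and 2 (Ptprc and Cd8a) were called higher. Adgre1, C1qa, Itgam and Tyrobp were at 0 or 1 count in Lyso, while Lyz2 had 45 counts over Lyso and 54 over WT. The part of leukocyte RNA in the Plvap result was not tested. Eng was higher in all 3 Lyso libraries than in WT, by 0.44 ± 0.17 on the log2 scale, and did not pass (edgeR adjusted p = 0.182).

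**Figure D4:**
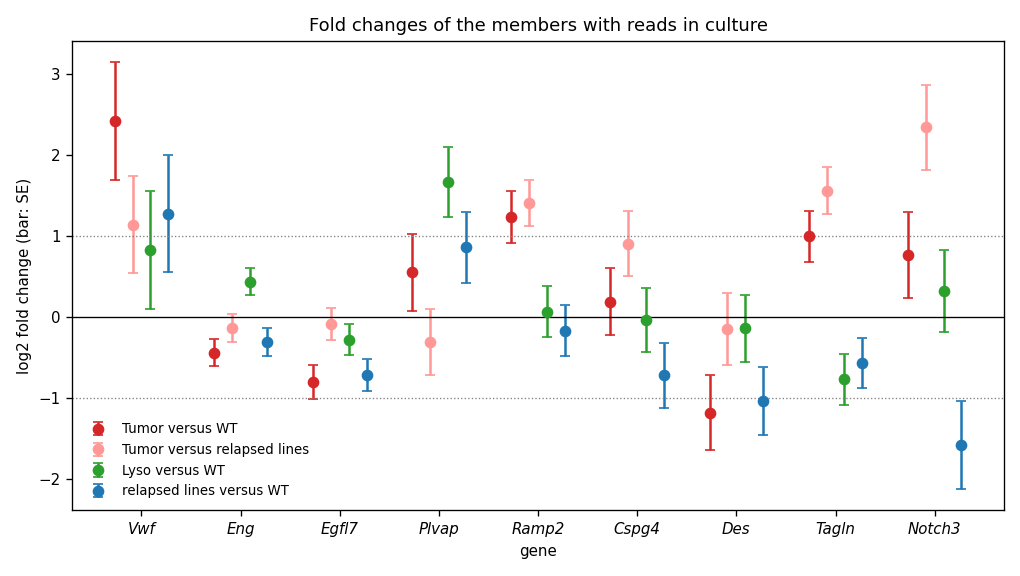
Log2 fold change of the 9 genes with enough reads in culture to be tested there, in 4 comparisons, each with a bar of 1 SE; the dotted lines mark a log2 fold change of 1 in either direction. Ramp2 is above 1 in both Tumor comparisons, Plvap above 1 in Lyso, and Notch3 is 2.35 against the relapsed lines and 0.77 against WT.

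Other genes of the vessel wall, listed as further markers, gave a mixed result in Tumor against WT. Beside them, 8.56% of all genes tested were called higher and 2.2% lower. Of 26 other endothelial genes, 19 were tested, 6 were called higher and 1, Nrp2, lower. Cd93, a receptor of endothelium and myeloid cells, rose from 0.0197 CPM in WT to 3.87 ± 1.44 CPM in Tumor (SD, n = 3, edgeR adjusted p = 0.000327). Icam2, an adhesion molecule of endothelium and platelets, had a log2 fold change of 2.39 ± 0.46, Flt4, the receptor of lymphatic endothelium for VEGF-C, of 2.95 ± 0.61, and Aplnr, the apelin receptor, rose to 1.11 ± 0.261 CPM. Of 21 other pericyte and smooth muscle genes, 15 were tested, 8 called higher and 3 lower. Pdgfrb, the PDGF receptor of mural cells and fibroblasts, rose from 11.6 ± 2.44 CPM in WT to 33.1 ± 2.97 CPM in Tumor, a log2 fold change of 1.53 ± 0.31 (edgeR adjusted p = 0.00441). Ndufa4l2 rose to 9.93 ± 4.45 CPM, Anpep, an aminopeptidase, to 25.5 ± 4.38 CPM, and Heyl, a target of Notch, from 0 counts in all 9 cultures to 2.01 ± 0.594 CPM. Cald1, Itga8 and Lmod1, genes of the contractile apparatus and its anchorage, were the 3 called lower.

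Angiogenic ligands, not all of which bind the receptors named above, were tested beside the vessel genes. Of 20 angiogenic ligands, 17 were tested. In Tumor against WT 8 were called higher and 0 lower, beside 8.56% and 2.2% of all genes tested. Vegfa was not called against WT, and passed against the relapsed lines at a log2 fold change of 2.31 (edgeR adjusted p = 0.0492). Pgf, the placental growth factor that binds Flt1, rose from 1.77 ± 0.708 to 17.1 ± 3.26 CPM, by 3.29 ± 0.35 on the log2 scale (edgeR adjusted p = 4.3e-05). Cxcl12, a chemokine made by stroma, reached 74.5 ± 9.26 CPM from 0.141 CPM in WT, where 1 count was seen in all. Angptl4 reached 25.8 ± 12.9 CPM and Vegfd, a ligand of Flt4, 9.49 ± 0.346 CPM from 0.267 ± 0.284 CPM. In Lyso and in the relapsed lines 0 of the 17 were called (edgeR), with 5 and 2 at an unadjusted p under 0.05.

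Markers of fibroblasts and of some other cell types were also higher in Tumor. All 10 fibroblast markers were called higher, beside 8.56% of all genes tested. Their summed level was 7770 to 10738 CPM in Tumor and 15.8 to 28.1 CPM in WT. Col3a1 alone reached 4155 ± 784 CPM in Tumor from 1 count in WT, and Dcn 286 ± 14.3 CPM from 1 count. The 17 endothelial genes not expressed in culture summed to 109, 117 and 113 CPM in Tumor 1, 3 and 4, of which Cd34 made up 70.9, 76.7 and 82.9 CPM. Without Cd34 they summed to 38.0, 40.1 and 30.1 CPM, which is 0.354%, 0.456% and 0.388% of the fibroblast sum in the same library. The sums are of different genes and are not scaled by exon length, so these percentages do not measure the ratio of the cell types. The 6 mural genes not expressed in culture summed to 15.8 to 21.1 CPM in Tumor and to 1.69 to 4.07 CPM in WT.

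Leukocyte markers summed to 43.2 to 68.5 CPM in Tumor and 12.5 to 29.2 CPM in WT. In the relapsed line ITF1 they summed to 46.8 CPM, within the range of Tumor. Of these 10 genes, 7 were tested and 4 were called higher (C1qa, Lyz2, Adgre1 and Ptprc), beside 8.56% of all genes tested. Platelet and megakaryocyte genes summed to 2.59 to 3.58 CPM in Tumor and 0.422 to 2.26 CPM in WT. Only 1 of the 6, Itga2b, was tested, and it was not called. In that list Pf4 had 9 counts over the 3 Tumor libraries and 1 over WT, Itga2b reached 2.22 ± 0.505 CPM in Tumor beside 1.47 ± 0.945 CPM in WT, and 3 of the 6 genes were at 0 in every Tumor library. Skeletal muscle genes summed to 9.18 to 13.9 CPM in Tumor and 2.26 to 4.42 CPM in WT. Of these 10 genes, 3 were tested, and Ckm and Ttn were called higher. Of the 10 melanocyte markers, 0 were called higher or lower in Tumor against WT (edgeR), with 4 at an unadjusted p under 0.05, among them Tyrp1 at a log2 fold change of -0.66 ± 0.18 (edgeR adjusted p = 0.0251). Against the relapsed lines 3 of the 10 were called, Mlana and Gpr143 lower and Mitf higher. The part of these cells in the values of Cd34, Acta2, Vwf, Pecam1 and the other vessel genes was not tested.

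**Figure D5:**
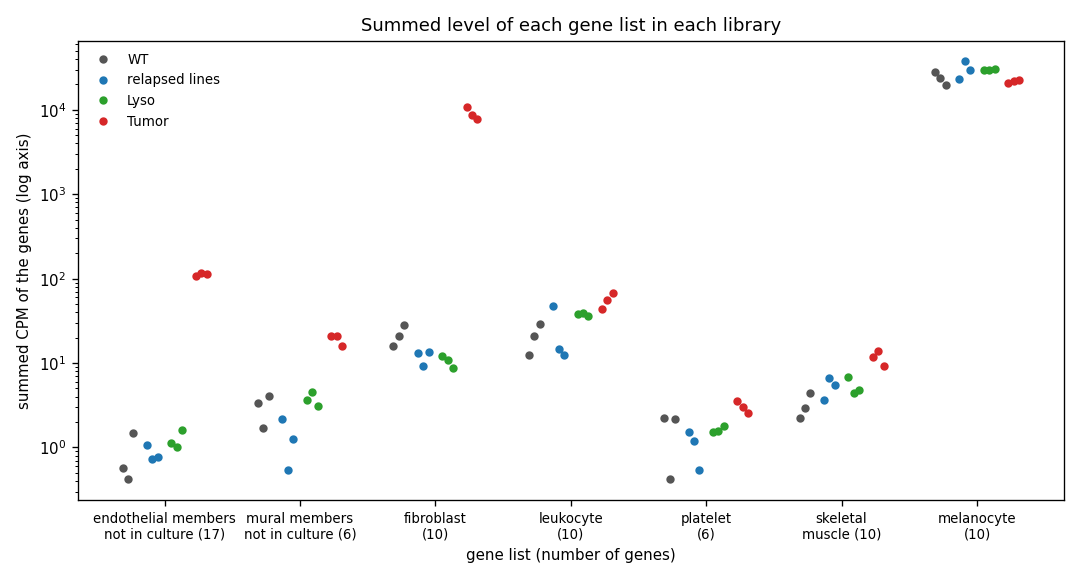
Summed CPM of 7 gene lists in each of the 12 libraries on a log axis, one point per library and coloured by group, with the number of genes in each list below it. The fibroblast points of Tumor lie between 7770 and 10738 CPM, the endothelial points of Tumor between 109 and 117 CPM, and the melanocyte points of Tumor between 20546 and 22660 CPM, within the range of WT.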

How the data were processed

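RNA was measured in 12 libraries of B16F10 cells. Per the labels and the paper's methods, the authors trimmed reads with fastp 0.19.6, aligned them to GRCm38 with STAR 2.7.1a and deposited raw counts per gene, used here as deposited. Between 36.2% and 39.4% of each column fell on genes, and 4 rows that name no gene were left out. The annotation release and strand setting are not given in the sources used here, so positions and exon lengths come from GENCODE M21, which holds 54165 of the 54232 identifiers. CPM values were TMM-scaled. The test was edgeR 4.0.16 in R 4.3.3 (quasi-likelihood, filterByExpr by group, 1 fit of all 12 libraries, Benjamini-Hochberg over 14924 genes), with SE taken as the fold change on the log2 scale divided by the square root of F. It was checked on simulated counts. The changes planted there lay in genes with reads in culture and all genes had the same spread. The check therefore does not cover genes near 0 in culture. Counting intervals (95%) are exact on pooled counts and cover counting error only. DESeq2 1.42.0, other scalings and filters and left-out libraries were alternatives.

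The members and gene lists were chosen with earlier results of these data known. Values per library are printed for genes called in any comparison or expressed in culture. From each other list at most 4 called genes with the smallest p in Tumor against WT are named, or the 2 with the highest mean CPM where none was called, and a few others (Nrp2, Cald1, Itga8, Lmod1, Cd8a, Itgam, Tyrobp, Mlana, Gpr143, Mitf) were named after their values were seen. Shared replicate numbers did not pair libraries: deviations from group means correlated at -0.015 to 0.014 between WT and Lyso and at 0.012 and 0.1 between WT and Tumor.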

Additional observations from a re-analysis of the deposited data

How the results depend on the processing

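Results are given for 31 genes in 4 comparisons. Against WT, 12 genes were higher in Tumor. That count fell to 4 with counts thinned to the shallowest library, where 9 genes could be tested, and to 7 in a fit of only the 2 groups, where 14 could be tested, and it ran from 8 to 15 when 1 library was left out. With no filter it was 17, which is within 1.5 times. The 0 genes called lower became 1 (Des) with no filter, 1 (Des) with the replicate block and 1 (Egfl7) at the adjusted p alone. Against the relapsed lines the 13 genes became 21 with no filter and 3 with thinned counts, and ran from 11 to 17 with 1 library left out. The 1 gene higher in Lyso became 0 with library size as the only scaling, 0 with thinned counts, 0 with WT 3 as the only control and 0 to 1 with 1 library left out. The 0 genes lower in the relapsed lines became 0 to 1 with 1 library left out, 1 (Notch3) without ITF1. The causes were not tested. Cspg4 in Tumor against WT ran from -0.24 without Tumor 3 to 0.87 without WT 3. With the replicate number as a block, 9 genes of 17 that could be tested were higher in Tumor than in WT, without Ramp2 (1.12, edgeR adjusted p = 0.0645), and 1 in Lyso. Of 444 values of single genes under an alternative, 410 kept direction and call, 29 lost the call, 4 gained one and 1 changed sign. The summed CPM of the 31 genes moved by less than 1 SD with library size as the only scaling. Depth limits the genes near 3 counts in Tumor, and WT 3 holds most WT counts. Fits with WT 3 as the only control assume that this lone library varies like the other groups.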
